A study of Danio rerio with 6 samples.

Results

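The enzymes that make and break down the inhibitory transmitter GABA were examined in whole brains of aged male zebrafish that had met lead only as embryos. The genes were gad1b and gad2, which encode the glutamate decarboxylases, and abat, which encodes 4-aminobutyrate aminotransferase. They were found by the gene symbol, an older synonym of it or the name of the homologue in the annotation of the array. By that annotation these 3 of the 20379 named genes of the array gave 6 of its 38489 target sequences. They gave 18 of its 113549 gene probes, with 3 probes for each target. Of these targets 1, annotated as gad1 but on chromosome 9, is kept apart from gad1b below.

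GABA is made from glutamate in 1 step by glutamate decarboxylase, which needs pyridoxal phosphate as its cofactor. The gad1b product corresponds to the form called GAD67 in mammals, which supplies the basal pool of GABA throughout the neuron, and the gad2 product to GAD65, which is tied to synaptic vesicles. The abat product works in mitochondria of neurons and glia and turns GABA into succinic semialdehyde, which aldh5a1 then oxidises to succinate for the citric acid cycle. In the brain the glutamate decarboxylase genes mark GABAergic neurons, whereas abat is used more widely.

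The fish were males of the AB strain, 12 months old, with 1 whole brain per sample and 1 array per brain. Per the labels, 3 control fish came from embryos held at 0 ppb lead and 3 lead-exposed fish from embryos held at 100 ppb lead, given as lead acetate. Exposure began before 2 hours and ended at 72 hours after fertilization, and both groups then lived in water without added lead at 28 °C. Female brains of the study were not analysed here. Nothing in the labels tells whether the fish of 1 group grew up apart from each other, and p-values cover no more than the differences among these 6 brains.

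Values are log2 intensities after RMA, a method that corrects background, equalises the arrays and merges the probes of a target. Differences are lead-exposed minus control, tested with limma across all 38489 targets with Benjamini-Hochberg adjustment. In that test 0 targets passed an adjusted p of 0.05 and 2768 had an unadjusted p under 0.05. The median difference was -0.02 over the 18284 targets above background on all arrays. Probes of random sequence set a background limit on each array, their 95th percentile, between 10.41 and 10.91. Array weights estimated by limma were lowest for lead-exposed 2 (0.486) and control 3 (0.528), against 0.957 to 2.26 for the other arrays. Some differences are therefore also given without 1 of these 2 arrays. In whole brains, fewer cells of a type and less RNA per cell cannot be told apart.

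The array carried 2 targets of gad1b on chromosome 6, 2 of gad2 on chromosome 24 and 1 of abat on chromosome 3. The brighter gad1b target (TC248972) lay at 1349700 to 1384036 and the dimmer one (OTTDART00000024316) at 369404 to 403766. The brighter gad2 target (OTTDART00000027090) lay at 3934190 to 3959976 and the dimmer one (TC251199) at 5556486 to 5558062. The abat target (ZV700S00005573) lay at 25417686 to 25464506. In the annotation the brighter gad1b, the dimmer gad2 and the abat target carry no gene symbol, only the name of the homologue. Positions are those in the array annotation, in which some target names begin with ZV7. Since targets of 1 gene stand at different positions, a single build for all of them was not settled.

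The sixth target was annotated as gad1 but lay on chromosome 9, at 2600932 to 2632335 (ENSDART00000025332). Zebrafish have 2 genes that correspond to mammalian GAD1, gad1b and gad1a. Within 500000 bases of this target the array held 12 named genes, the target's own name among them. Of these, 3 (cybrd1, hat1 and mettl8) are also neighbours of gad1a in the current RefSeq annotation and 0 are neighbours of gad1b. The gad1b targets on chromosome 6 shared 5 and 3 neighbours with gad1b and 0 with gad1a. Of 64 named genes near the abat target on the array, 4 are also neighbours of abat. The target on chromosome 9 was therefore kept apart from gad1b below and is called the chromosome 9 gad1 target.

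All 6 targets had lower means in lead-exposed brains, with a median difference of -0.16, and 0 passed the adjusted threshold in limma. Over all targets of the array 50.8% had a lower mean, and 53.9% of those above background on all arrays. Only abat had an unadjusted p under 0.05, as did 3.00% of all targets in the lower direction (4.19% in the higher) and 1.19% of those above background. That call was lost with a block for replicate number or for image name prefix, and on the arrays with that prefix alone. Leaving out control 1, control 2, lead-exposed 1 or lead-exposed 3 also lost it. In 2 targets, abat and the brighter one of gad1b, no lead-exposed brain reached the lowest control, which held for 6.09% of all targets and 4.40% of those above background. Of the 6 targets 5 were above the background limit on all 6 arrays, and the chromosome 9 gad1 target was above it on 5 arrays.

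**Figure D1:**
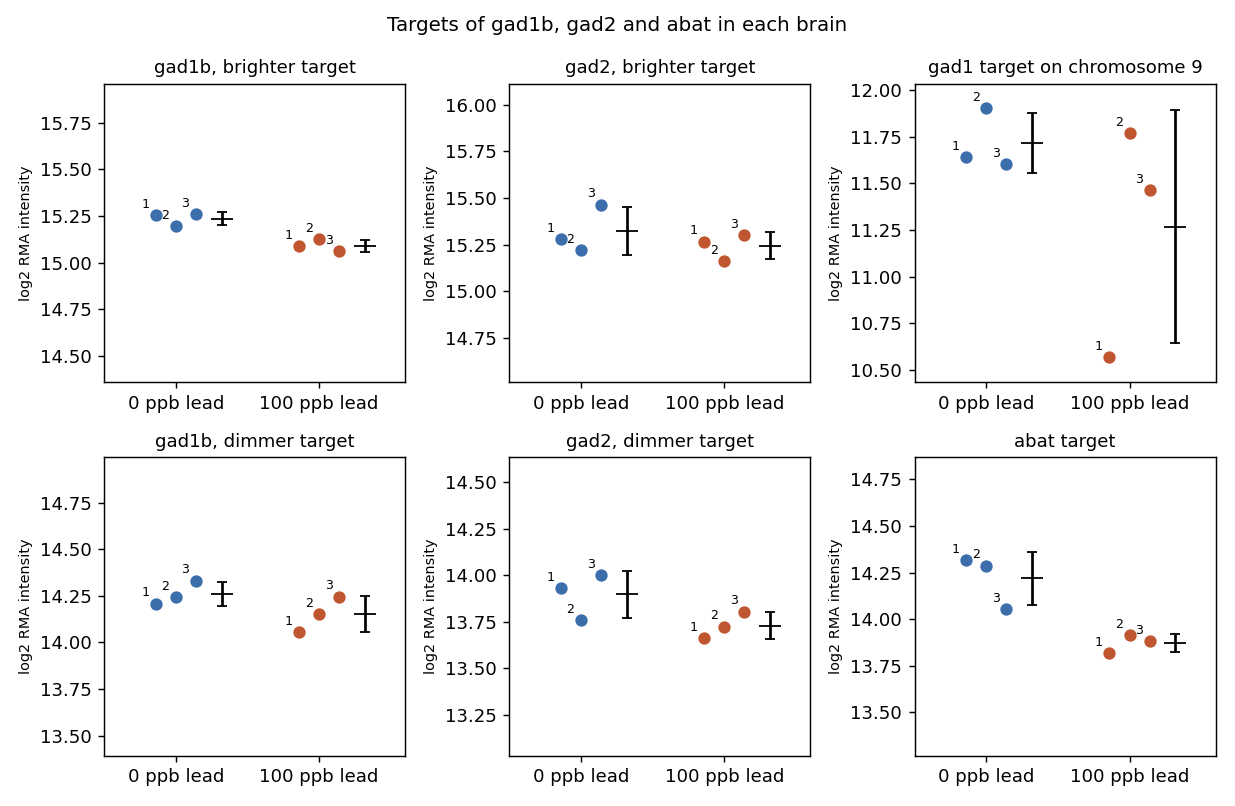
Log2 RMA intensity of the 6 targets in each brain, 3 control (blue, 0 ppb lead) and 3 lead-exposed (orange, 100 ppb lead). Numbers mark replicates, bars show the mean ± SD (n = 3), and every panel spans the same log2 range around its own centre. The groups stand apart for the brighter gad1b target and for abat and overlap in the other 4 panels.

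The brighter gad1b target had the tightest values among controls of the 6 targets. It was at 15.25, 15.19 and 15.26 in controls 1 to 3 and at 15.09, 15.13 and 15.06 in lead-exposed 1 to 3. The highest lead-exposed brain lay just under the lowest control. The difference was -0.14 (SE 0.11, 95% interval -0.41 to 0.12), or 9.55% lower in intensity, with an adjusted p of 0.819 in limma. The dimmer gad1b target was at 14.21, 14.24 and 14.33 in controls and at 14.05, 14.15 and 14.25 in lead-exposed brains. These groups overlapped, since lead-exposed 3 was above controls 1 and 2, and the difference was -0.11 (SE 0.12, 95% interval -0.40 to 0.18, adjusted p of 0.869 in limma). Without lead-exposed 1 it was -0.06, and without control 3 it was -0.07.

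As a mean of both targets, the log2 level of gad1b was 14.75 ± 0.04 in controls against 14.62 ± 0.04 after lead (SD, n = 3 each). The difference of -0.13 had an exact permutation p of 0.1, 2-sided, the smallest that 3 against 3 arrays allow. With each array centred on its random-sequence probes the difference was -0.11 with an exact permutation p of 0.5. It was -0.11 on the 4 arrays whose image names carry a prefix and -0.16 on the 2 arrays without it.

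The gad2 values overlapped between the groups in both targets. The brighter target was at 15.28, 15.22 and 15.47 in controls and at 15.27, 15.16 and 15.30 in lead-exposed brains. Control 3 alone stood above the rest, and without it the difference of -0.08 (SE 0.13, 95% interval -0.38 to 0.22, adjusted p of 0.916 in limma) became -0.01. Leaving out lead-exposed 2 instead made the difference -0.04. The dimmer target was at 13.93, 13.76 and 14.00 in controls and at 13.66, 13.72 and 13.80 in lead-exposed brains. Only control 2 lay within the lead-exposed range, and the difference was -0.17 (SE 0.13, 95% interval -0.47 to 0.13, adjusted p of 0.815 in limma). Leaving out control 3 made it -0.12.

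The mean of both gad2 targets was 14.61 ± 0.12 in controls against 14.49 ± 0.06 after lead (log2, SD, n = 3 each). The difference of -0.12 had an exact permutation p of 0.2. It was -0.06 without control 3. The intervals of the gad2 targets reach down to 76.8% and 72.2% of the control intensity and up to 117% and 110%, so a moderate change in either direction was not detectable with 3 arrays in each group.

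The chromosome 9 gad1 target was dimmer than the chromosome 6 ones on every array, although levels of different probes do not compare transcript amounts. Its values were 11.64, 11.90 and 11.61 in controls and 10.57, 11.77 and 11.47 in lead-exposed brains. A single brain, lead-exposed 1, stood well below all others, while lead-exposed 2 lay above 2 of the 3 controls. The difference of -0.45 (SE 0.31, 95% interval -1.17 to 0.27, adjusted p of 0.798 in limma) became -0.10 without lead-exposed 1 and -0.70 without lead-exposed 2.

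The breakdown enzyme abat differed most in relation to its error. Its target was at 14.32, 14.29 and 14.06 in controls and at 13.82, 13.92 and 13.88 in lead-exposed brains. The 3 lead-exposed brains lay close together and all below control 3, the lowest control. Means were 14.22 ± 0.14 against 13.87 ± 0.05 (log2, SD, n = 3 each), which differed by -0.35 (SE 0.13, 95% interval -0.65 to -0.04), or 21.4% lower in intensity.

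That difference had an unadjusted p of 0.031 and did not pass after adjustment over all targets, with an adjusted p of 0.668 in limma. The unadjusted p was 0.057 with the replicate number as a block and 0.053 when a block for the image name prefix was fitted. In the order of p-values abat stood behind 4.65% of all targets. The exact permutation p was 0.1, the smallest possible. The difference was -0.43 without control 3 and -0.37 without lead-exposed 2. Without control 1, control 2 or lead-exposed 1 it was -0.30, -0.31 and -0.32, with unadjusted p of 0.109, 0.090 and 0.085 in limma. Without lead-exposed 3 it was -0.35, with an unadjusted p of 0.064 in limma. It was -0.27 on the 4 arrays with the image name prefix and -0.50 on the 2 without it, which allow no test. The authors' deposited table of altered probes, which lists 180 targets, held 0 of the 6 targets.

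Single probes show whether the pieces of each transcript gave like answers. All 18 probes had lower means in lead-exposed brains, against 50.5% of all gene probes on the array. Probes of 1 gene read the same RNA on the same arrays, so they are not replicates of the exposure. Groups did not overlap for 5 of the 18, against 8.24% of all gene probes in the lower direction. An unadjusted p under 0.05 was seen for 2, both of abat, against 5.00%, and 0 of the 18 passed the adjusted threshold in limma. Over all 113549 gene probes 1 passed (0.000881%), a probe of hnmt, which was named after its value was seen.

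**Figure D2:**
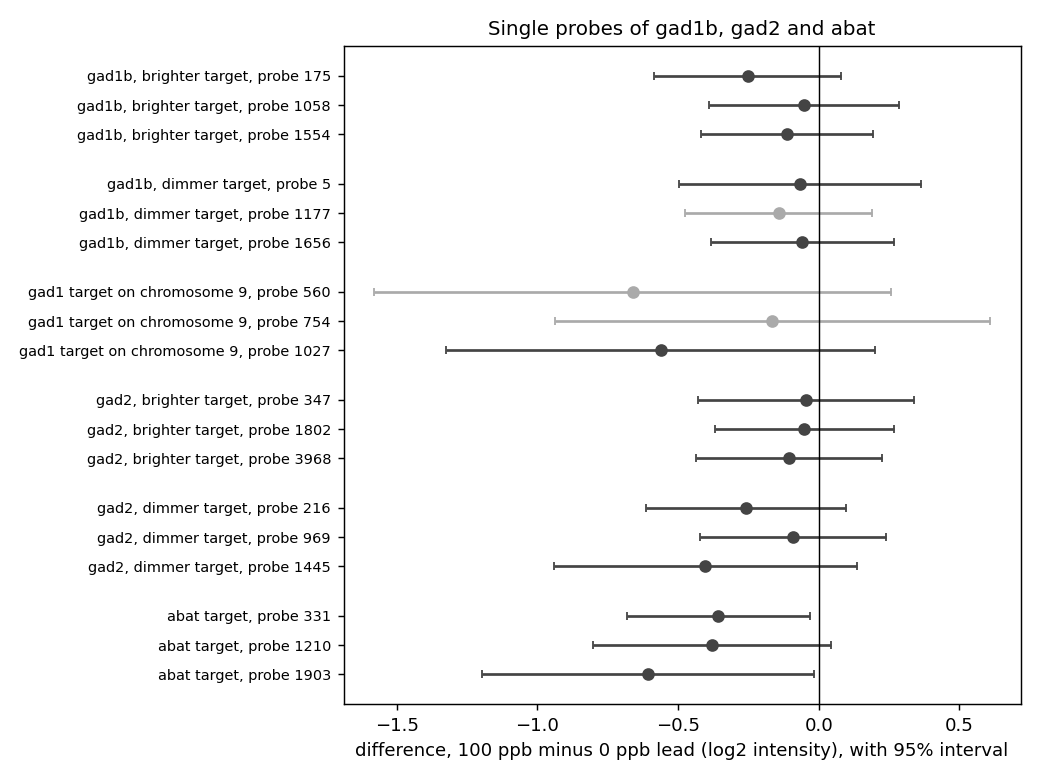
Difference between lead-exposed and control brains in log2 intensity for each of the 18 single probes, with limma's 95% interval. Numbers are those in the probe names, and grey points were at or below the background limit on at least 1 array. All points lie left of 0, and the intervals of 2 abat probes exclude it.

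The 3 abat probes differed by -0.36 (probe 331), -0.38 (probe 1210) and -0.61 (probe 1903). Probe 331 read 14.29, 14.18 and 14.06 in controls and 13.82, 13.76 and 13.88 in lead-exposed brains, so its groups stood apart. For probe 1903 controls 1 and 2 were at 13.96 and 13.95 but control 3 was at 13.27, inside the lead-exposed range of 12.82 to 13.29. All 3 probes of abat were above the background limit on all 6 arrays.

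Probes of the brighter gad1b target differed by -0.25, -0.05 and -0.11, and those of the dimmer target by -0.07, -0.14 and -0.06. The probe at -0.14 had a control mean of 8.15 and was below the background limit on all arrays, so it gave no measure of gad1b. Probes of the brighter gad2 target differed by -0.05, -0.05 and -0.11 and those of the dimmer target by -0.26, -0.09 and -0.40. The 3 probes of the brighter gad2 target were among the brightest of the array, with 0.490% to 0.948% of gene probes above them. The gad2 probe at -0.40 was the dimmest of that gene, with a control mean of 12.32. Whether brightness near the top of the scale narrowed the differences was not tested.

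Differences of the chromosome 9 gad1 probes were -0.66, -0.17 and -0.56. All 3 probes were lowest in lead-exposed 1, at 9.70, 10.59 and 11.63, so this brain stood apart in the whole target and not in 1 probe. Of these probes 1 was above the background limit on all 6 arrays.

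Over the 6 brains gad1b and gad2, each as the mean of its targets, went together with Pearson's r of 0.818 (permutation p of 0.0431) and Spearman's rho of 0.886 (permutation p of 0.0333). After adjustment over the 3 pairs the p for r was 0.129, and without the 2 brains farthest from the median of gad1b r was 0.548. For gad1b and abat r was 0.694 (permutation p of 0.132, adjusted 0.198) and rho 0.771 (permutation p of 0.103). Without the same 2 brains, chosen by gad1b and not by abat, r was 0.981. For gad2 and abat r was 0.301 (permutation p of 0.567) and rho 0.486 (permutation p of 0.356). Without the 2 brains farthest from the median of gad2 r was 0.02. Once the group means were taken out, r was 0.731 between the decarboxylases but -0.413 and -0.707 between abat and gad1b and between abat and gad2. Control 3, for example, had the highest gad1b and gad2 and the lowest abat of the controls. No correlation was computed among the 4 arrays with the image name prefix or the 2 without it, which are too few.

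Other genes of the pathway were counted by their brightest target. Besides the 3 enzymes 30 were measured, of which 17 had lower and 13 higher means in lead-exposed brains, with a median difference of -0.03. None of the 30 had an unadjusted p under 0.05 in limma, against 7.19% of all targets and 554 of the 18284 above background on all arrays. After adjustment 0 of the 30 passed.

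**Figure D3:**
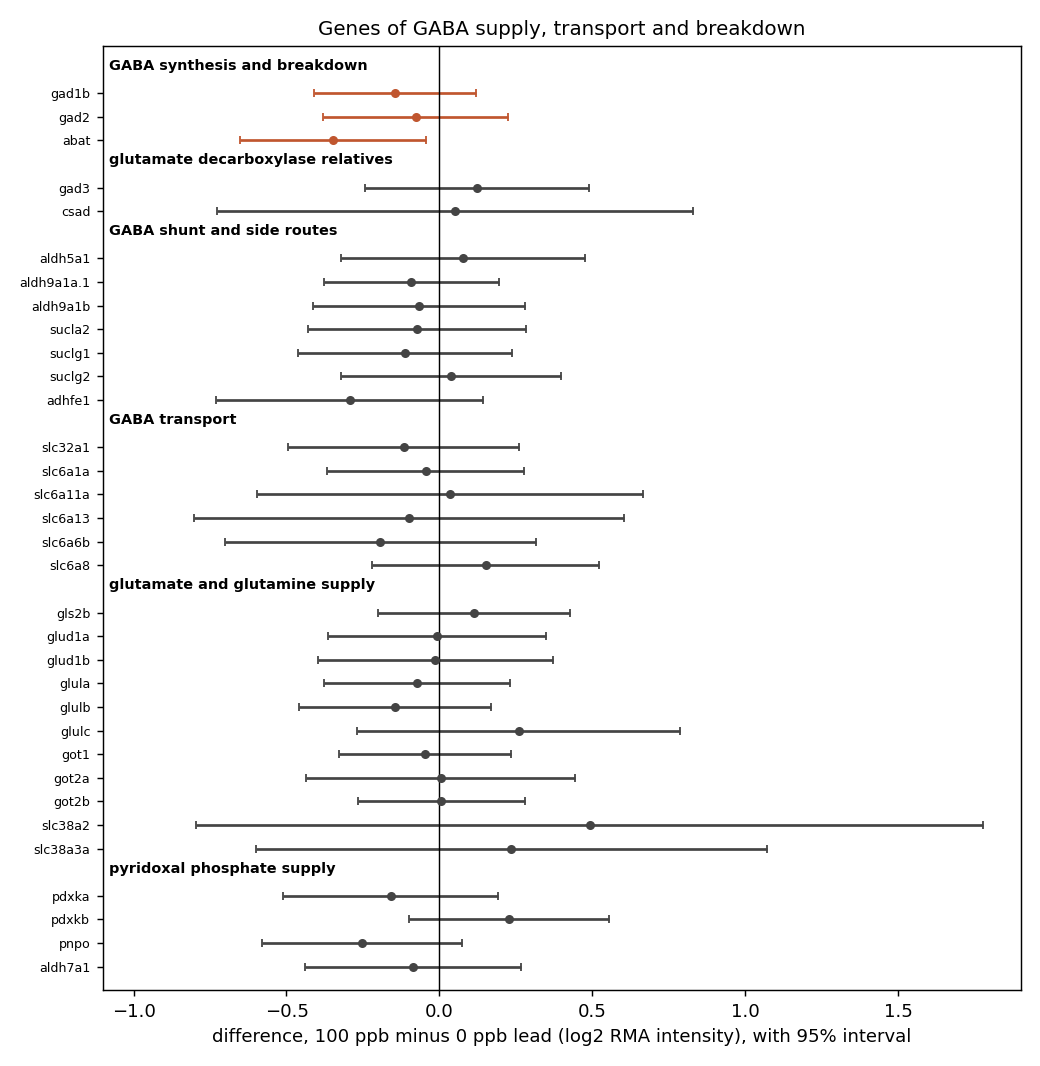
Difference between lead-exposed and control brains in log2 RMA intensity for the brightest target of each measured gene, with limma's 95% interval, grouped by role. The enzymes of GABA synthesis and breakdown are in orange, and among the genes shown only the interval of abat excludes 0.

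Of the relatives of glutamate decarboxylase, gad3 differed by 0.12 and csad, which makes hypotaurine for taurine synthesis, by 0.05. Both were below the background limit on all arrays.

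Of 7 genes of the GABA shunt and its side routes, 5 were lower and 2 higher. The succinyl-CoA synthetase genes sucla2, suclg1 and suclg2 differed by -0.07, -0.11 and 0.04. The aldehyde dehydrogenases aldh9a1a.1 and aldh9a1b, of a family that can make GABA from putrescine by a side route in mammals, differed by -0.09 and -0.07. Other aldh9a1a.1 targets differed by 0.01 and by -0.47. The latter had groups apart (unadjusted p of 0.00732 and adjusted p of 0.592 in limma) but was below the background limit on all arrays. Its 3 probes ran from -0.76 to 1.83, so they disagreed in direction. A difference of -0.29 (SE 0.18) was that of adhfe1, which acts on the related metabolite gamma-hydroxybutyrate and was above the background limit on 1 array.

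The brightest target of aldh5a1, the enzyme after abat, was at 13.61, 13.84 and 13.36 in controls and at 13.85, 13.54 and 13.66 in lead-exposed brains. These groups overlapped, with a difference of 0.08 (SE 0.17). A second target annotated to aldh5a1, on chromosome 16 at 36069776 to 36070157, was at 9.91, 8.71 and 10.18 in controls and at 10.80, 10.81 and 10.95 in lead-exposed brains. Each control lay below the background limit of its array (10.91, 10.76 and 10.41) and each lead-exposed brain just above its own (10.73, 10.56 and 10.48). The controls thus give only a bound for this target, and its size of difference is not given. The groups stood apart, with an unadjusted p of 0.0108 and an adjusted p of 0.606 in limma, which rest on those control values. All 3 probes of this target had higher means in lead-exposed brains, on the same arrays. The annotation names both targets only by the human homologue.

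Of 6 transport genes 4 were lower and 2 higher. The vesicular transporter gene slc32a1, which loads GABA into synaptic vesicles, was 14.67 ± 0.05 in controls against 14.55 ± 0.26 after lead (log2, SD, n = 3 each) and differed by -0.12 (SE 0.16). The neuronal reuptake gene slc6a1a differed by -0.05 (SE 0.14) and the glial reuptake gene slc6a11a by 0.04 (SE 0.27). For slc6a13, a GABA and taurine transporter gene of the brain's coverings, the brightest target differed by -0.10 (SE 0.30) and the others by -0.48 and -0.08. The target at -0.48 was above the background limit on 5 arrays, and the target at -0.08 was below it on all arrays. The taurine transporter gene slc6a6b differed by -0.19 and the creatine transporter gene slc6a8 by 0.15. None of the 6 genes had an unadjusted p under 0.05.

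Of 11 genes that supply glutamate and glutamine 5 were lower and 6 higher, with a median of 0.00. As a mean deviation from the 6-brain average the list lay between -0.09 and -0.00 in controls and between 0.01 and 0.07 in lead-exposed brains. This narrow gap depended on slc38a2, whose own groups overlapped, and groups stood apart for 0 of the 11 members. The members with the largest differences were slc38a2 (0.49, SE 0.54), glulc (0.26, below the background limit on all arrays) and slc38a3a (0.24, above it on 2 arrays), and a second member, gls2b, was below the limit on all arrays. The glutamine synthetase genes glula and glulb differed by -0.07 and -0.14, the glutamate dehydrogenase genes glud1a and glud1b by -0.01 and -0.01, and the aspartate aminotransferase gene got2b by 0.01.

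Both gad and abat enzymes need pyridoxal phosphate, and 4 genes of its supply were measured. Groups stand apart in either direction for 13.1% of all targets. They stood apart here for pnpo, which makes the active cofactor, at -0.25 (SE 0.14, adjusted p of 0.744 in limma), though a second pnpo target differed by -0.04. They also stood apart, higher after lead, for the pyridoxal kinase gene pdxkb, at 0.23 (SE 0.14, adjusted p of 0.771 in limma). Its paralogue pdxka differed by -0.16, and aldh7a1 by -0.09.

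Marker lists of cell types were set beside the enzymes, as mean deviations from the 6-brain average in log2 units. As for the tissue label, all 10 measured members of the list of all neurons, among them elavl3, elavl4 and snap25a, were above the background limit on all 6 arrays. That list lay between -0.02 and 0.05 in controls and between -0.04 and 0.05 in lead-exposed brains, with 5 of 10 members lower, and its smallest p-values belonged to stmn2b (-0.14) and gap43 (0.12). Glutamatergic genes were lower for 2 of 5 members, led by slc17a8 (0.69, above the background limit on only 3 of the 6 arrays) and slc17a6a (-0.19). Means of that list were -0.31 to 0.19 in controls and -0.12 to 0.25 in lead-exposed brains.

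Factors and peptides of GABAergic neurons had lower means in 13 of the 15 measured, against 50.8% of all targets and 53.9% of those above background. The median difference of the 15 was -0.29. Leaving out lead-exposed 1 made that median -0.04, leaving out control 2 made it -0.18, and leaving out lead-exposed 2 made it -0.53. Smallest in p were arxa (-0.69, SE 0.24, unadjusted p of 0.024) and dlx2a (-0.43, SE 0.18, unadjusted p of 0.051), both homeobox genes of forebrain interneurons. Of the 15, 1 had an unadjusted p under 0.05, against 3.00% of all targets in that direction and 1.19% of those above background. After adjustment in limma 0 passed. The list lay between 0.02 and 0.35 in controls and at -0.43, 0.14 and -0.18 in lead-exposed 1, 2 and 3, so lead-exposed 2 was within the control range. The members lhx8a and sp8a were below the background limit on all arrays.

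Purkinje cells, the GABAergic output neurons of the cerebellum, had 5 of 6 markers lower, with a median of -0.07. The calcium binding gene pvalb7 differed by -0.01 and the carbonic anhydrase-related gene ca8 by 0.20, while aldoca (-0.46, below the background limit on all arrays) and rorca (-0.41) had the smallest p-values. Means of the list were -0.19 to 0.22 in controls and -0.57 to 0.21 in lead-exposed brains.

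Astroglia and radial glia, which also use abat, had 8 of 9 markers lower, against 50.8% of all targets and 53.9% of those above background. The median difference of the 9 was -0.29. That median was -0.47 without lead-exposed 2 and -0.12 without lead-exposed 3. The glycine transporter gene slc6a9 (-0.63) and the bicarbonate transporter gene slc4a4a (-0.42) had the smallest p-values. An unadjusted p under 0.05 was seen for 1 of 9 members, against 3.00% of all targets in that direction and 1.19% of those above background. After adjustment 0 passed. List means were 0.12 to 0.36 in controls. They were -0.47 in lead-exposed 1, 0.39 in lead-exposed 2 and -0.64 in lead-exposed 3. The spread of these means owed most to fabp7b, a fatty acid binding gene of radial glia, which was at 13.07, 12.13 and 11.58 in controls and at 8.84, 13.32 and 8.50 in lead-exposed brains. In lead-exposed 2 slc6a9 (11.53) and slc4a4a (11.28) lay inside the control range. The part of these cell types in the enzyme differences was not tested.

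**Figure D4:**
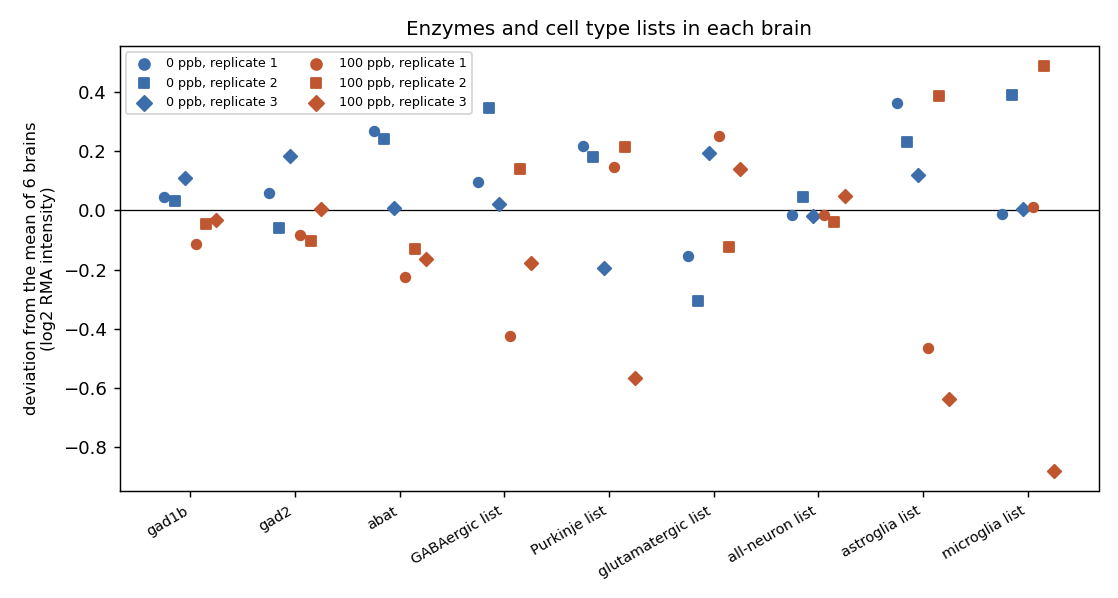
Deviation of each brain from the mean of the 6 brains in log2 RMA intensity, for gad1b, gad2 and abat (mean of their targets) and for 6 marker lists (mean over members). Blue marks control and orange lead-exposed brains, and the symbol gives the replicate number. The groups stand apart for gad1b and abat, and overlap for the 6 lists.

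Microglial markers were lower for 5 of 7 members, and 3 of the 7 were below the background limit on all arrays. The smallest p-values belonged to apoeb (-0.74, with a second target at -0.13) and p2ry12 (-0.50, 1 of those 3). In limma both had an unadjusted p under 0.05, with groups apart. These were 2 of 7 members, against 3.00% of all targets called in that direction and 6.09% with groups apart and lower. Among targets above background the shares were 1.19% and 4.40%, and 0 of the 7 passed after adjustment. List means were -0.01 to 0.39 in controls and -0.88 to 0.49 in lead-exposed brains. Oligodendrocyte genes were lower for 3 of 8, with sox10 at -0.31 and plp1b at 0.08, and means of -0.02 to 0.04 and -0.01 to 0.01. Blood and vessel genes were lower for 4 of 8, with rgs5a at -0.71 and cldn5b at 0.39, the latter below the background limit on all arrays, and means of -0.03 to 0.07 and -0.14 to 0.23. For rgs5a and cldn5b groups stood apart with an unadjusted p under 0.05 in limma, and 0 of the 8 passed after adjustment. Over all targets, groups stood apart in either direction for 13.1%, and 7.19% had an unadjusted p under 0.05. The list means overlapped between the groups for all 3 lists.

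Other tissues that express these enzymes were checked as well. Liver, which is rich in abat in mammals, had 4 of 6 markers lower, and 4 of the 6 were below the background limit on all arrays. Its list means stood apart, between 0.10 and 0.15 in controls and between -0.22 and -0.02 in lead-exposed brains. Smallest in p were cp (-1.19), the ceruloplasmin gene, and fabp10a (-0.32), which was below the background limit on all arrays. The gap between the liver means depended on cp, the only member whose groups stood apart, and the median of the 6 differences was -0.13. Pancreatic islet, where glutamate decarboxylase is also found, had 3 markers measured, with pdx1 and pax6b (-0.08) smallest in p, and means of -0.39 to -0.13 in controls and 0.06 to 0.52 in lead-exposed brains. The gap between the islet means came from pdx1 alone, which was below the background limit in all 3 controls and above it in all 3 lead-exposed brains, and the median of the 3 differences was -0.06. The part of either tissue in the enzyme differences was not tested.

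Skeletal muscle markers were below the background limit on all arrays for 6 of 8 members and pituitary markers for 7 of 8. Muscle had 3 members lower and 5 higher, with a median of 0.05. Its smallest p-values belonged to tnnt3a (-0.39, above the limit on 1 array) and pvalb1 (-0.61, below it on all arrays). Muscle means were -0.16 to 0.33 in controls and -0.06 to 0.04 in lead-exposed brains. Pituitary had 4 lower and 4 higher, with fshb (0.47) and lhb (0.33) smallest in p, both below the limit on all arrays. Of the 8, 1 (fshb) had an unadjusted p under 0.05 in limma, against 4.19% of all targets in that direction. Pituitary means were -0.12 to 0.09 in controls and -0.12 to 0.14 in lead-exposed brains.

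The named genes whose values followed the brightest target of each enzyme most closely over the 6 brains were sought among 5828 targets above the background limit. For gad1b they were fgfr2 (r = 0.979), scoca (0.973), lonp2 (0.963) and elavl1b (0.963). For gad2 they were pcm1 (0.989), atg13 (0.989), vegfab (0.968) and prrc2a (0.962). For abat they were the activity-dependent transcription factor gene egr3 (0.991), the tropomyosin gene tpm4a (0.987), the neuropeptide gene uts1 (0.977) and the synaptic vesicle gene sypb (0.966). Their group differences were -0.66 for egr3, -0.30 for tpm4a, -0.65 for uts1 and -0.74 for sypb. These genes were picked by likeness to abat on the same arrays, so their lower means follow from that choice. Between 36 and 52 of the 5828 targets had r above 0.9 with each enzyme, where the 52 for gad2 include its own brightest target. How many would pass 0.9 without any relation to the enzyme was not computed. With 6 brains these likenesses are a description of these arrays.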

How the data were processed

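Each of the 6 arrays has a deposited table of intensity values, 1 per target, made by the authors with RMA per the submitters' processing notes (no version stated). A deposited series table holds the intensity of single probes. The authors' deposited list of altered targets adds a log2 ratio and a p-value to each; it was searched for the 3 enzymes only. The log2 of the target intensity was tested by limma 3.58.1 under R 4.3.3 (lmFit, then eBayes), 2-sided; the model held the group alone, used the 6 arrays and filtered no dim target. The same fit was made on gene probes. The number of arrays limits the precision. Image name prefixes, absent for replicate 1 of each group, were treated as a possible batch. By their scan numbers the control arrays precede the lead-exposed ones, which means that a position effect and the exposure cannot be told apart. Correlations used Python 3.11.15 with scipy 1.17.1. The fit was tested on simulated data.

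Targets were named through RefSeq accessions (2663), current symbols (4966), synonyms (5755), the symbol as given (7880) or a homologue (9528), and 7697 had no name. The RefSeq table describes GRCz12tu, and only its names and neighbours were used. The brightest forward target stood for a gene in 18 gene lists, 2 genes of which stood in more than 1 list. Genes named were the 3 enzymes with all targets, genes of transport, shunt and decarboxylase lists, any pathway gene with an unadjusted p under 0.05, the 2 members of each marker list with the smallest p, and for each enzyme the 4 named genes of highest correlation among targets above the random-sequence limit with an SD of at least 0.1. Other pathway genes were named after their values were seen, as examples. Members and lists were chosen with earlier results of these data known.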

Additional observations from a re-analysis of the deposited data

How the results depend on the processing

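Each target had 16 or 17 alternatives, 98 values in all. They included other scalings, array weights, the series table, blocks, a filter on dim targets, single arrays left out, and arrays with or without the image name prefix. All 6 targets kept a lower mean in lead-exposed brains throughout. Of all targets 0 passed the adjusted threshold in any of the 15 alternatives that allow a test. Either block and the filter leave the difference of a target unchanged by construction. Those values repeat the main one and say nothing further on direction. The abat difference ranged from -0.50 to -0.27, with adjusted p in limma from 0.253 upward. Its unadjusted p was under 0.05 in 8 of the 15 that allow a test, and was 0.109 without control 1. With arrays left out in turn, the ranges were -0.43 to -0.30 for abat, -0.14 to -0.10 for gad1b, -0.18 to -0.06 for gad2 and -0.70 to -0.10 for the chromosome 9 gad1 target.

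Replicate numbers are shared between the groups, and the labels do not say whether they pair the fish. Same-numbered arrays deviated from their group means with correlations of -0.15, 0.14 and 0.26, and control 1 correlated best with lead-exposed 2 (0.36). With 3 arrays in each group these correlations cannot settle whether the numbers pair the fish. With a replicate block the differences stay as they are, -0.35 for abat, -0.13 for gad1b, -0.12 for gad2 and -0.45 for the chromosome 9 target, with an exact permutation p of 0.25 each, the smallest possible there. The unadjusted p of abat in limma was 0.057 with the replicate block and 0.053 with the prefix as a block.

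Either block again leaves the differences of single probes as they are. Of 252 values of single probes under alternatives 241 were below 0 and 11 above. On arrays with the prefix only they were 0.22 (chromosome 9 target, probe 754), 0.0078 (gad1b, probe 1058) and 0.020 (gad1b, probe 1656). With single arrays left out, probe 754 ranged from -0.39 to 0.21 and gad1b probe 1656 from -0.10 to 0.0025, both highest without lead-exposed 1. Likewise gad1b probe 5 ranged from -0.20 to 0.075 (highest without control 3), gad2 probe 1802 from -0.085 to 0.0070 (without lead-exposed 1) and gad2 probe 347 from -0.11 to 0.052 (without control 3). Probe 347 was also at 0.032 with array weights, 0.056 on arrays without the prefix and 0.034 without lead-exposed 2. The 1 gene probe past the adjusted threshold became 0 with either block, with prefix arrays only and with each single array left out; the cause was not tested. Arrays with and without the prefix were chosen as subsets after seeing the data. Leaving out the dimmer 50% of targets left no decarboxylase relative and no muscle gene and does not touch the permutation values, and array weights give them no p.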
